A study of Mus musculus with 69 samples.

Results

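The 42 genes described here encode the liver's extracellular matrix, the enzymes that cut and cross-link it, and proteins by which hepatic stellate cells and myofibroblasts are recognised. They were chosen by symbol, and all 42 were found among the 55367 gene symbols of the count table and were among the 17059 genes expressed well enough to be tested. They fall into 8 roles, which are fibrillar collagens (5 genes), basement membrane (8), beaded filament and fibril-associated collagens (4), glycoproteins, elastic fibres and small proteoglycans (7), proteinases and their inhibitors (6), cross-linking enzymes (3), stellate cell and myofibroblast proteins (7), and a growth factor with a matricellular signal protein (2). The study took livers of C57/Bl6J mice of genotype J1 J2 lf/lf on HFD, a high-fat diet, every 3 h over 24 h, at the clock hours 2, 5, 8, 11, 14, 17, 20 and 23. The groups were LJ1J27b (FLPO recombinase, 23 libraries, called JNK7b below), LJ1J27a (CRE recombinase, 22 libraries, JNK7a) and LJ1J2control (GFP, 24 libraries, control), with 2 to 4 libraries for each group and hour. The series describes the mice as hepatocyte-specific JNK spliceoform mice, and JNK is the stress-activated protein kinase encoded by Mapk8 and Mapk9. All groups, controls included, share the genotype label and the diet, so no group here is free of either. The age and sex of the mice, the light schedule, how the recombinases were delivered, and which spliceoform each of them leaves, could not be learned from the labels. The labels also do not say that each library came from a separate mouse, so the p-values measure the spread between these libraries, which may in part be technical.

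Liver matrix is made mainly outside the hepatocyte. Stellate cells, which store vitamin A in the space between hepatocytes and sinusoids, become myofibroblasts on injury and then secrete fibrillar collagens, lysyl oxidases and tissue inhibitors of metalloproteinases, and sinusoidal endothelial cells and portal fibroblasts add basement membrane and portal matrix. Hepatocytes themselves secrete plasma fibronectin and collagen XVIII, the precursor of endostatin, so this set holds products of several cell types. In RNA from whole liver, fewer cells of a type and less RNA per cell cannot be told apart.

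The start regions of 4 genes are shown because the comparisons turn on them. They are RefSeq promoter windows on GRCm38.p6, each reaching from 250 bases before to 50 bases after the annotated start, written 5′ to 3′ on the gene's own strand. Col4a1 (chr8:11312777-11313076, minus strand) and Col4a2 (chr8:11312555-11312854, plus strand) encode the 2 chains of the main type IV collagen, and are a head-to-head pair whose annotated starts lie 20 bases apart with the first exons overlapping. Capitals in these 2 windows mark the 78 bases that both share, each window reading the strand opposite to the other.
Col4a1: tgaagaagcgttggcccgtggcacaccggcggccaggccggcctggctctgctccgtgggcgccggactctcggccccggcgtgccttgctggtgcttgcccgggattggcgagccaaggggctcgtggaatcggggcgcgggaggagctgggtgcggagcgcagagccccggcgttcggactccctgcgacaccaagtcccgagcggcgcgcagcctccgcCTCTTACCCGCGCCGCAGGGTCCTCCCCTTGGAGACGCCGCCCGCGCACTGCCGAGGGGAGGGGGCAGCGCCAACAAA
Col4a2: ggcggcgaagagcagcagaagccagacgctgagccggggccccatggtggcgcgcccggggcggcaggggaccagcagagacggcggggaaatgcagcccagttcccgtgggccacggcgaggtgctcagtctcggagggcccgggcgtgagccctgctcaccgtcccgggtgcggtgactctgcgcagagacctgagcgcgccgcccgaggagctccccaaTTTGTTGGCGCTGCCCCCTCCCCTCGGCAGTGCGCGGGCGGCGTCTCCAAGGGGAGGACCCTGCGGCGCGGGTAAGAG
The windows of the pair had 74.0% G and C for Col4a1 and 73.7% for Col4a2. Mmp14 (chr14:54431348-54431647, plus strand) encodes the membrane-anchored matrix metalloproteinase MT1-MMP, and capitals mark 2 adjoining GC boxes (GGGCGG) in its window. Col3a1 (chr1:45311288-45311587, plus strand) encodes the chain of type III collagen, and capitals mark the letters TATAAA.
Mmp14: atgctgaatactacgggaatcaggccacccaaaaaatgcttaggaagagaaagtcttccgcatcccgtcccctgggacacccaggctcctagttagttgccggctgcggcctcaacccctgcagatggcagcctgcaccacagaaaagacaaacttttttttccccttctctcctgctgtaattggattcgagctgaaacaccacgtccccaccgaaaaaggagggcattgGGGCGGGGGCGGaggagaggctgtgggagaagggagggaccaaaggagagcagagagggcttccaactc
Col3a1: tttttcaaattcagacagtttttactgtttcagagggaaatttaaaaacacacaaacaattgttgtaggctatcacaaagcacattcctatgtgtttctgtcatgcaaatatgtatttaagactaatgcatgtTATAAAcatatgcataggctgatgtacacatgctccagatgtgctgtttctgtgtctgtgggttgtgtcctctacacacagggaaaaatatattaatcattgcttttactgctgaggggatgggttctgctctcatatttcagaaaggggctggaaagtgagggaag
RefSeq windows were found for 27 of the 42 genes, 29 windows in all, and were searched on both strands for 6 short motifs, which may overlap each other. The GC box GGGCGG was in the windows of 19 of the 27 genes and in 35.6% of all 32817 mouse windows, and CCAAT was in 10 of the 27 and in 37.4% of all windows. GGAATG, the letters read by TEAD factors, was in those of 7 genes, Acta2, Col18a1, Col3a1, Col6a2, Lrat, Nid1 and Timp1, and in 14.7% of all windows. TGANTCA, the letters read by AP-1, the factor family that holds the JNK substrate Jun, was in those of Col6a1 and Mmp13 and in 7.81% of all windows. The clock factors' E-box CACGTG was in that of Reln and in 7.15% of all windows, and TATAAA was in those of Col3a1 and Mmp13 and in 13.6% of all windows. These matches are letters in a window and not sites shown to be bound.

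Libraries held 26.8 M to 48.6 M counts, with a median of 32.7 M, and the hepatocyte product Alb, which marks the tissue as liver, had a median of 43682 TPM. Mapk8 had a median of 17.8 CPM in JNK7b, 14.3 CPM in JNK7a and 17.7 CPM in control livers, and Mapk9 had 58.0, 41.9 and 52.8 CPM in the same order of groups. These gene-level values add up both spliceoforms, so they check neither the isoforms nor the labels. One library went against its group: control 8 h replicate 3 had 14.2 CPM of Mapk9, where the next control library had 34.9 CPM and the lowest JNK7a library 28.9 CPM. The lowest JNK7b library was 5 h replicate 2, at 36.6 CPM. With both of these left out, 6 of the 42 matrix genes were called in JNK7a against control, 1 in JNK7b against control and 7 in JNK7b against JNK7a by edgeR, where 16.7%, 9.39% and 17.1% of all genes were. At the clock hours 2, 5, 14 and 17, JNK7b livers differed from control livers at 0 to 34 of the 17059 genes, against 448 to 711 genes at 8, 11, 20 and 23 h, and the cause of this split was not tested. At 2, 5, 14 and 17 h Mapk9 ranged over 36.6 to 63.4 CPM in JNK7b and 35.6 to 61.1 CPM in control livers. The medians were 53.8 and 56.6 CPM, so Mapk9 does not tell the groups apart at these hours. At 8, 11, 20 and 23 h its medians were 61.6 CPM in JNK7b and 51.9 CPM in control livers, with overlapping ranges. Mapk9 therefore does not check the group labels of the JNK7b libraries at 2, 5, 14 and 17 h, and a check by other genes was not made. Every JNK7b value averaged over 8 hours takes these labels as given. Group differences called among the 42 genes in JNK7b are therefore also given over each set of 4 hours. This choice was made after seeing the data. Values of cell markers and of genes outside the 42 are given over all 8 hours only.

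Across the 69 libraries the matrix genes tended to be high or low together. For each library the median over the 42 genes of log2 CPM minus the gene's mean was taken, and 2 libraries lay more than 3 scaled median absolute deviations above the rest, at a limit of 0.87. JNK7b 8 h replicate 3 had a median of 1.15 and was the highest of all libraries for 17 genes, and JNK7b 2 h replicate 3 had 0.89 and was the highest for 13 genes. Collagen I shows the size of this: Col1a1 had 11.8, 17.4 and 65.0 CPM in the JNK7b livers at 8 h, and 14.6, 5.41 and 54.3 CPM in those at 2 h. At each of these hours the highest Col1a1 value was that of the library that stands apart. JNK7b 8 h replicate 3 also had the summed markers of other cells at 127 TPM for cholangiocytes, 30.0 TPM for portal fibroblasts and 31.7 TPM for T and NK cells, where the JNK7b medians were 49.3, 14.3 and 13.4 TPM. JNK7b 2 h replicate 3 had 74.3, 19.7 and 15.5 TPM for the same lists. The smooth muscle list holds Acta2 and Tagln, which belong to the 42 genes, and its other 7 genes summed to 4.07 TPM in JNK7b 8 h replicate 3 and 3.86 TPM in JNK7b 2 h replicate 3, where the JNK7b median was 3.34 TPM. The next libraries were control 5 h replicate 1 at 0.69, control 14 h replicate 2 at 0.62 and JNK7b 17 h replicate 1 at 0.51, and the lowest was JNK7a 17 h replicate 3 at −0.58. Results on the 42 genes that rest on the 2 libraries above the limit are given below with and without them. Both are JNK7b libraries and were picked by the high level of these same genes. Leaving them out therefore lowers the JNK7b level of the set by construction.

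**Figure D1:**
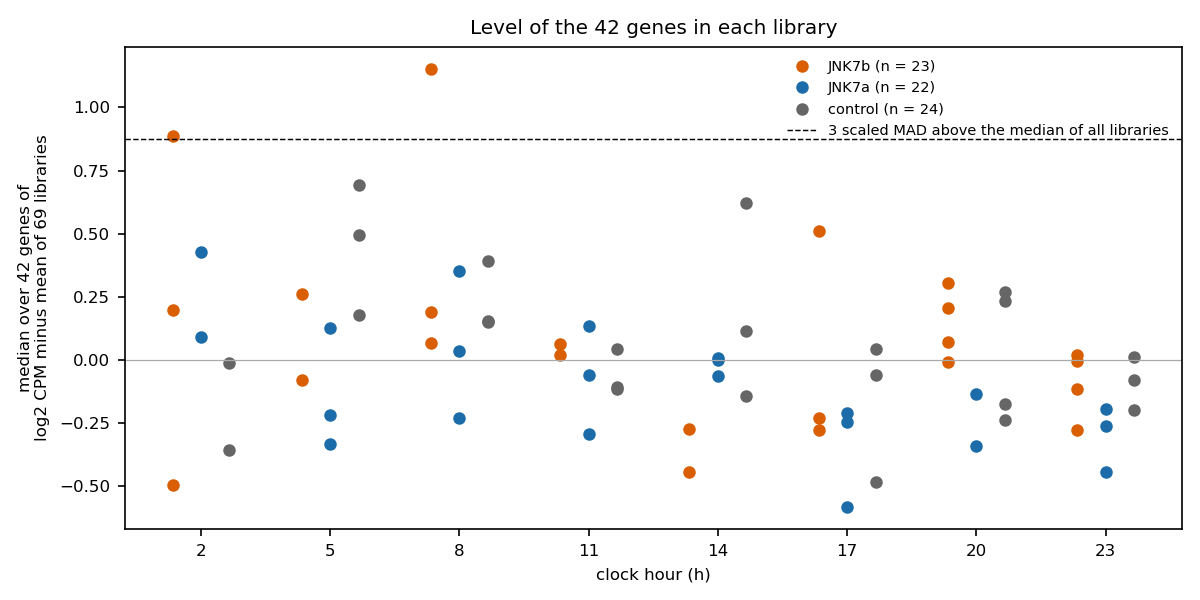
Each point is 1 library, placed by clock hour on the horizontal axis and by the median over the 42 genes of its log2 CPM minus the mean of 69 libraries on the vertical axis, with JNK7b, JNK7a and control in separate colours. The JNK7b points at 1.15 (8 h) and 0.89 (2 h) lie above the dashed limit of 0.87, and control libraries at 5 h lie at 0.69 and below.

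The 42 genes spanned a wide range of levels. Per length, averaged over all libraries, Fn1 (fibronectin) had 271 TPM and Col18a1 196 TPM, followed by the small leucine-rich proteoglycans Dcn (decorin) at 98.1 TPM and Bgn (biglycan) at 44.5 TPM, and by Sparc, a collagen-binding glycoprotein, at 26.6 TPM. Mmp14 had 12.4 TPM, Col3a1 10.2 TPM and Timp3 6.68 TPM. At the low end stood Timp1 at 0.364 TPM, the microfibril gene Fbn1 at 0.347 TPM, the lysyl oxidase Lox at 0.121 TPM and the collagenase Mmp13 at 0.0881 TPM. The stellate cell genes Lrat, the vitamin A esterifying enzyme, and Reln, the secreted glycoprotein reelin, were detected in every library, with lowest values of 7.67 and 30.7 CPM.

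The most abundant genes, Fn1 and Col18a1, varied least between libraries. Among libraries of the same group and hour, the SD of log2 CPM was 0.11 for Fn1, 0.11 for Col18a1, 0.20 for Dcn and 0.20 for Bgn. It was 1.17 for Mmp13, 1.07 for Timp1, 0.84 for Col1a1 and 0.74 for Acta2, the smooth muscle actin of myofibroblasts. The median over the 42 genes was 0.41, against 0.34 over all genes tested. The typical gene of the set thus varied more between replicate livers than the typical gene tested.

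JNK7a livers, set against control livers over all 8 hours, had less RNA for type III collagen, both type IV collagen chains and nidogen, and slightly more for fibronectin and collagen XVIII. The called differences lay between 0.10 and 0.57 on the log2 scale in size. Calls were made by the quasi-likelihood test of edgeR at a p below 0.05 after adjustment over all 17059 genes by the Benjamini-Hochberg method, and 6 of the 42 genes were called, 4 lower and 2 higher, while 17.9% of all genes were called in this comparison. Without the 2 JNK7b libraries that stand apart 9 were called, 7 lower and 2 higher, while 18.5% of all genes were. In direction the set leaned one way: 35 of 42 genes had a log2 fold change below 0, with a median of −0.17, where 49.7% of all genes tested lay below 0 with a median of 0.00. The genes tended to be high or low together across libraries. Counts of signs, here and in the comparisons below, are therefore not counts of separate observations. The 5 fibrillar collagens had a median of −0.37, the 8 basement membrane genes −0.30, the 4 beaded filament and fibril-associated collagens −0.24, the 3 cross-linking enzymes −0.27, and the 7 stellate cell and myofibroblast genes −0.09. The other roles leaned less or were small: the 6 proteinases and inhibitors had a median of −0.10, the growth factor and matricellular pair −0.14, and the 7 glycoproteins, elastic fibre and proteoglycan genes −0.03, with 4 below and 3 above 0.

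Col3a1, the gene of type III collagen (chromosome 1, 45311538 to 45349706 on mm10, plus strand), had 11.8, 21.8 and 46.9 CPM as the lowest, median and highest of the 22 JNK7a libraries, against 13.9, 32.3 and 92.8 CPM in the 24 control libraries. The groups overlapped over most of their range, and the highest control libraries lay above every JNK7a library. Col3a1 fell, with a log2 fold change of −0.57 ± 0.19 (SE) and an adjusted p of 0.0334 by edgeR, and its hour means were lower in JNK7a at 6 of 8 hours. The call was lost on leaving out any of 9 of the 69 libraries, control 5 h replicate 1 and control 14 h replicate 2 among them. The type I collagen chains had the same sign without passing the test. Col1a1 averaged 9.41 ± 4.49 CPM in JNK7a livers and 14.4 ± 10.9 CPM in control livers (SD, n = 22 and 24; log2 fold change −0.46 ± 0.25, edgeR adjusted p = 0.234), and Col1a2 averaged 12.4 ± 3.40 and 17.0 ± 8.95 CPM (−0.37 ± 0.18, edgeR adjusted p = 0.170). The type V chains Col5a1 and Col5a2, which seed type I fibrils, had −0.29 ± 0.14 and −0.21 ± 0.19.

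Of the 8 basement membrane genes 4 were called, 3 lower and 1 higher, where of all 17059 genes 1630 were lower and 1417 higher. With 5 h left out all 4 calls were lost. The adjusted p was then 0.167 for Col4a1, 0.210 for Col4a2, 0.227 for Nid1 and 0.0797 for Col18a1 (edgeR). Col4a1 (chromosome 8, 11198423 to 11312826, minus strand) had 6.88, 17.6 and 29.6 CPM as lowest, median and highest in JNK7a livers, against 10.2, 22.8 and 39.7 CPM in control livers, and Col4a2 (chromosome 8, 11312805 to 11449287, plus strand) had 6.69, 10.9 and 17.3 CPM, against 8.98, 13.7 and 21.4 CPM. In both genes the median of JNK7a libraries lay inside the control range and the hour means were lower in JNK7a at 7 of 8 hours. Both fell, Col4a1 with a log2 fold change of −0.37 ± 0.12 (adjusted p = 0.0190, edgeR) and Col4a2 with −0.28 ± 0.09 (adjusted p = 0.0237, edgeR). Nid1 (chromosome 13, 13437551 to 13512269, plus strand), which encodes nidogen, the linker between the laminin and type IV collagen networks, had 6.65, 9.59 and 16.5 CPM in JNK7a livers and 6.85, 12.6 and 36.3 CPM in control livers. It fell as well, with a log2 fold change of −0.38 ± 0.13 (adjusted p = 0.0265, edgeR), a call lost without control 14 h replicate 2. The laminin chains did not pass: Lamc1 had −0.22 ± 0.09 (adjusted p = 0.0844, edgeR), Lamb1 −0.13 ± 0.08 and Lama2 −0.35 ± 0.20.

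Fn1 and Col18a1 moved the other way. Fn1 (chromosome 1, 71585520 to 71653200, minus strand) had 1257, 1534 and 1888 CPM as lowest, median and highest in JNK7a livers, against 1224, 1425 and 1682 CPM in control livers, and rose by 0.11 ± 0.04 on the log2 scale (adjusted p = 0.0183, edgeR; higher at 7 of 8 hours). Col18a1 (chromosome 10, 77052178 to 77166548, minus strand) had 608, 711 and 859 CPM against 592, 656 and 817 CPM, and rose by 0.10 ± 0.04 (adjusted p = 0.0437, edgeR; higher at 7 of 8 hours). The ranges overlapped in both genes, with the highest JNK7a library above every control library, and the call of Col18a1 was lost on leaving out any of 24 of the 69 libraries. The call of Fn1 held with each library left out, but was lost under 8 of 24 other settings. Among these were no filter on low counts and both limma fits on the deposited TPM, and the lowest difference was 0.04. Col18a1 was lost under 13 of these 24 settings. The hepatocyte markers are set beside them because hepatocytes make both proteins: 5 of 11 tested markers were higher and 1 lower in JNK7a, with summed markers of 81953 to 143435 TPM in JNK7a and 90952 to 111575 TPM in control livers. The median of these sums was lower in JNK7a, at 94589 TPM against 98073 TPM in control livers. The part of hepatocyte content in the 2 rises was not tested.

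The genes of stellate cells and myofibroblasts showed no called difference: 0 of 7 passed edgeR's test, and none of the 7 had an unadjusted p below 0.05. Lrat had 9.37, 15.0 and 30.0 CPM as lowest, median and highest in JNK7a livers and 7.67, 17.7 and 26.6 CPM in control livers (log2 fold change −0.09 ± 0.12, adjusted p = 0.717, edgeR). Acta2 had 0.962, 2.38 and 8.52 CPM against 0.494, 2.67 and 9.36 CPM (−0.12 ± 0.22, adjusted p = 0.815, edgeR), and Pdgfrb, the receptor for platelet-derived growth factor on stellate cells, had 3.14, 5.77 and 10.8 CPM against 3.26, 6.81 and 12.5 CPM (−0.17 ± 0.11, adjusted p = 0.331, edgeR). The groups overlapped over most of their range in all 3 genes. Timp1, an inhibitor of metalloproteinases that activated stellate cells secrete, was near the floor, with medians of 0.115 CPM in JNK7a and 0.110 CPM in control livers and some libraries of each at 0 (−0.35 ± 0.53, adjusted p = 0.752, edgeR). Tgfb1, the main fibrogenic growth factor, had medians of 5.25 and 5.39 CPM (−0.02 ± 0.09, adjusted p = 0.963, edgeR), and Ccn2, the matricellular protein also called connective tissue growth factor, 3.59 and 4.44 CPM (−0.27 ± 0.15, adjusted p = 0.242, edgeR). The 95% interval of the Lrat difference ran from −0.32 to 0.15 on the log2 scale, so a lack of change is not shown.

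Markers of other cells were counted in the same comparison. Of the tested markers, 1 of 10 for portal fibroblasts was lower in JNK7a (Fbln2), 0 of 8 for smooth muscle were called, of which Acta2 and Tagln belong to the 42 genes, 1 of 7 for mesothelium was lower (Wt1), 1 of 15 for endothelium was lower (Lyve1) and 0 of 8 for cholangiocytes were called. Summed TPM ranged over 8.20 to 22.2 in JNK7a and 9.82 to 21.0 in control livers for portal fibroblasts, over 1.42 to 5.93 and 1.88 to 5.72 for the 7 smooth muscle genes outside the set, over 1.26 to 7.50 and 1.04 to 7.54 for mesothelium, where 6 of 7 markers had a log2 fold change below 0 with a median of −0.59, and over 49.8 to 207 and 78.5 to 163 for endothelium. Among defining markers, Myocd of smooth muscle was at 0 in 48 and Gli1 of portal fibroblasts in 31 of the 69 libraries. For T and NK cells 6 of 13 markers were higher in JNK7a, with sums of 5.96 to 39.0 TPM against 3.32 to 15.3 TPM in control livers, and for Kupffer cells and macrophages 1 of 16 was higher. Of the adipocyte markers 3 of 4 tested were lower (Cfd, Car3 and Cidea), with sums of 1537 to 2654 TPM in JNK7a against 2729 to 4232 TPM in control livers, without overlap. Car3 makes up nearly all of that sum (median 3139 TPM), while the defining adipocyte markers Adipoq, Retn, Lep and Plin1 were at 0 in 57, 49, 67 and 59 of the 69 libraries. For skeletal muscle and pancreas 2 of 2 tested were higher (Cela1 and Amy2a5), with sums of 29.6 to 109 TPM in JNK7a and 26.1 to 91.1 TPM in control livers. Most of that sum is Cela1 (median 46.6 TPM), while Ckm, Tnnt3, Prss2, Cpa1 and Pnlip were at 0 in 67, 66, 67, 65 and 62 libraries and Amy2a5 in 47. The part of these cells in the matrix differences was not tested.

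**Figure D2:**
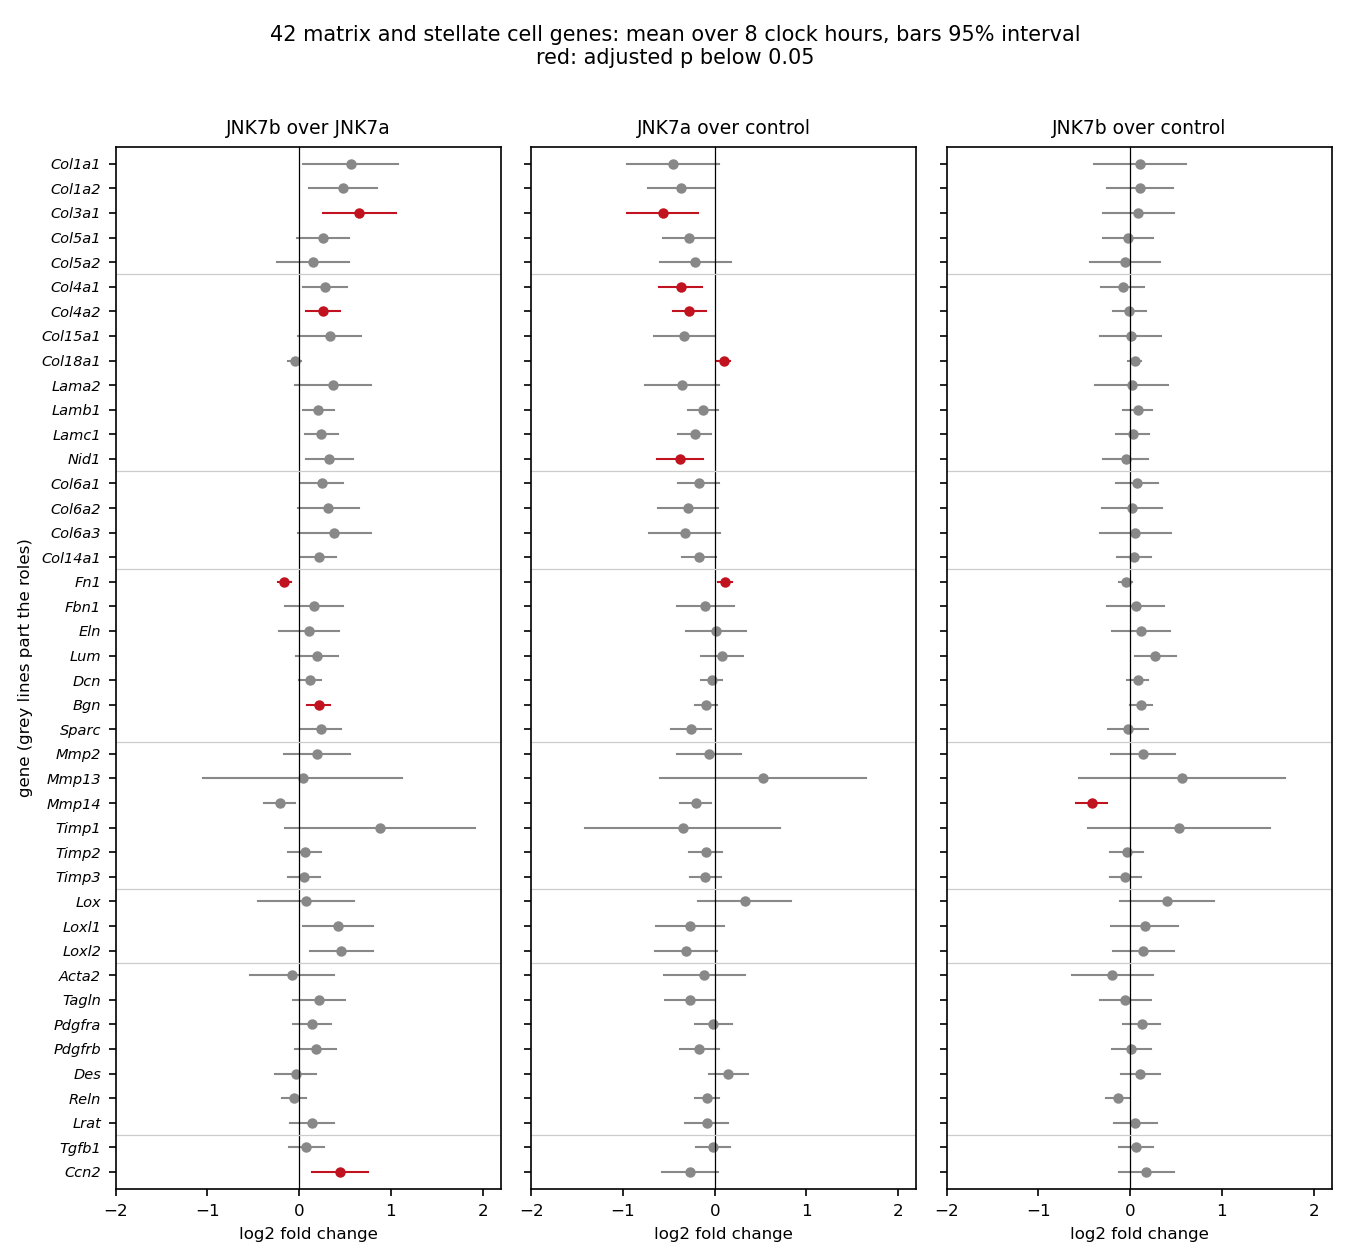
Each row is 1 of the 42 genes, ordered by role, and each panel a comparison averaged over 8 clock hours, with the log2 fold change as a point and its 95% interval as a bar, red where the adjusted p was below 0.05. In the JNK7a over control panel most points lie left of 0, with Col3a1 at −0.57, and in the JNK7b over JNK7a panel most lie right of 0, with Col3a1 at 0.66, while Fn1 has the opposite sign to Col3a1 in both.

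JNK7b livers, set against the same control libraries, differed by the test in a single matrix gene, the membrane metalloproteinase Mmp14. By edgeR it was called lower, alone among the 42, where 11.3% of all genes tested were called in either direction. No gene of the set was called higher, and at an unadjusted p below 0.05 there were 4 genes, Mmp14, Lum, Bgn and Reln. The 42 genes had a median log2 fold change of 0.05, with 13 below and 29 above 0, and the fibrillar collagens a median of 0.09. Without the 2 libraries that stand apart the set had a median of −0.07, with 29 below and 13 above 0, and the fibrillar collagens −0.19. These libraries were picked as high in these same genes, so a shift downwards was fixed in advance.

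Mmp14 (chromosome 14, 54431612 to 54445364, plus strand) had 11.0, 18.3 and 31.2 CPM as lowest, median and highest in JNK7b livers, 14.9, 21.4 and 43.2 CPM in JNK7a livers and 16.8, 25.8 and 40.9 CPM in control livers. Of the 23 JNK7b libraries, 9 lay below every control library, though the ranges overlapped. Its product activates pro-MMP2 at the cell surface and cuts fibrillar collagen, and it fell in JNK7b, with a log2 fold change of −0.42 ± 0.08 (adjusted p = 0.000266, edgeR), with a lower mean than control at 7 of 8 hours. The means for JNK7b were 26.9, 26.7, 18.7, 16.5, 19.9, 18.3, 17.6 and 14.7 CPM at hours 2 to 23 in order, against 26.6, 37.6, 27.2, 23.3, 24.8, 20.0, 24.4 and 27.9 CPM in control livers. Without the 2 libraries that stand apart, whose choice by high level lowers JNK7b values, the log2 fold change was −0.49 (adjusted p = 3.93e-06, edgeR). Over hours 8, 11, 20 and 23 it was −0.61 (adjusted p = 4.72e-05, edgeR), and over 2, 5, 14 and 17 h it was −0.23 and did not pass (adjusted p = 0.610, edgeR). Leaving out those libraries as well gave −0.73 (adjusted p = 3.16e-07, edgeR) and −0.26 (adjusted p = 0.479, edgeR). In JNK7a livers Mmp14 had −0.21 ± 0.08 against control, which did not pass (adjusted p = 0.0763, edgeR), and the direct comparison of JNK7b with JNK7a gave −0.21 ± 0.09 (adjusted p = 0.0757, edgeR).

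The partners of Mmp14 in matrix turnover did not pass in JNK7b. Mmp2, the gelatinase that MT1-MMP activates, had a median of 2.37 CPM in JNK7b and 2.50 CPM in control livers (0.14 ± 0.17, adjusted p = 0.710, edgeR). The inhibitors Timp2 and Timp3, which bind MT1-MMP, had log2 fold changes of −0.04 ± 0.09 and −0.05 ± 0.08, and Timp1 had 0.53 ± 0.49 (adjusted p = 0.575, edgeR) with its highest library, JNK7b 8 h replicate 3, at 1.26 CPM. Col1a1 had 3.31, 10.9 and 65.0 CPM as lowest, median and highest in JNK7b livers, against 3.95, 12.0 and 42.4 CPM in control livers (0.11 ± 0.25, adjusted p = 0.885, edgeR). Col1a2 had 0.11 ± 0.18 and Col3a1 0.09 ± 0.19 (adjusted p = 0.800 and 0.868, edgeR). The groups overlapped over nearly the whole range, and the highest libraries of all 3 genes were JNK7b ones.

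Stellate cell genes in JNK7b livers likewise overlapped with those in control livers over most of their range. Lrat had 9.24, 17.3 and 27.5 CPM (0.05 ± 0.12, adjusted p = 0.871, edgeR), Pdgfrb 4.59, 6.88 and 14.4 CPM (0.01 ± 0.11, adjusted p = 1.00, edgeR) and Acta2 0.819, 1.81 and 6.20 CPM (−0.20 ± 0.22, adjusted p = 0.664, edgeR), each as lowest, median and highest of 23 libraries. Tgfb1 had 3.75, 5.57 and 9.07 CPM (0.06 ± 0.09, adjusted p = 0.772, edgeR). Over hours 8, 11, 20 and 23 alone, 3 of 42 genes were called, where 17.8% of all genes were: Mmp14 and Reln lower and Lum, the collagen-binding proteoglycan lumican, higher. Of these, Mmp14 and Reln were called without the 2 libraries that stand apart, and Lum was not, where 16.9% of all genes were. Over 2, 5, 14 and 17 h none was called by edgeR, where 0.152% of all genes were. Markers of other cells also differed between the groups. Hepatocyte markers were lower at 5 of 11 tested, with sums of 67681, 84463 and 101996 TPM as lowest, median and highest in JNK7b livers against 90952, 98073 and 111575 TPM in control livers. Of the T and NK cell markers 4 of 13 were higher and 1 lower, with median sums of 13.4 TPM in JNK7b and 6.65 TPM in control livers. Of those of Kupffer cells and macrophages 2 of 16 were higher (Itgax and Cd68), with median sums of 302 and 229 TPM. Their part in the Mmp14 difference was not tested.

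The 2 recombinase groups were also compared directly, which uses the same JNK7a libraries as the comparison above and so is no second test of them. JNK7b livers had more RNA than JNK7a livers for type III collagen, a type IV collagen chain, biglycan and Ccn2, and less for fibronectin. Of 42 genes 5 were called by edgeR, 4 higher and 1 lower, where 18.6% of all genes were called. With any 1 library left out the count was 3 to 14, the 14 being without JNK7b 2 h replicate 2, where 19.1% of all genes were called. Without the 2 libraries that stand apart it was 3 (Fn1 and Mmp14 lower and Bgn higher), where 16.7% of all genes were. Restricted to hours 8, 11, 20 and 23, the comparison called 10 of the 42, where 18.5% of all genes were, and over 2, 5, 14 and 17 h 1, where 7.64% were. Once those libraries were left out these counts were 4 (Lama2, Lamc1, Mmp14 and Ccn2) and 0, where 17% and 7.42% of all genes were called. The set's median log2 fold change was 0.21, with 36 of 42 above 0, against a median of −0.00 over all genes tested. By role the medians were 0.48 for fibrillar collagens, 0.43 for cross-linking enzymes, 0.28 for beaded filament and fibril-associated collagens, 0.27 for basement membrane and 0.14 for stellate cell and myofibroblast genes. They were 0.26, 0.16 and 0.05 for the growth factor and matricellular pair, the glycoprotein role and the proteinases and inhibitors. With the 2 libraries left out, a choice that lowers JNK7b values, the set's median was 0.11, with 31 of 42 above 0. Those of the roles were 0.24, 0.26, 0.14, 0.16, 0.10, 0.19, 0.07 and −0.01, in the same order.

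Col3a1 had 14.9, 32.7 and 127 CPM as lowest, median and highest in JNK7b livers, against 11.8, 21.8 and 46.9 CPM in JNK7a livers. The JNK7b median lay above 19 of the 22 JNK7a libraries, and the JNK7b libraries at 2 and 8 h that stand apart were the highest, at 127 and 121 CPM. Col3a1 was 0.66 ± 0.20 higher on the log2 scale (adjusted p = 0.0135, edgeR; 7 of 8 hours), and without those 2 libraries the difference was 0.43 and did not pass (adjusted p = 0.0888, edgeR). Over hours 8, 11, 20 and 23 Col3a1 had 0.75 (adjusted p = 0.0479, edgeR), and over 2, 5, 14 and 17 h 0.56 (adjusted p = 0.257, edgeR). Without the 2 libraries neither set passed, at 0.57 (adjusted p = 0.101, edgeR) and 0.29 (adjusted p = 0.585, edgeR). Col1a1 and Col1a2 had 0.56 ± 0.26 and 0.48 ± 0.18 and did not pass (adjusted p = 0.128 and 0.0636, edgeR). Col4a2 averaged 13.7 ± 4.54 CPM in JNK7b and 11.3 ± 3.05 CPM in JNK7a livers (SD, n = 23 and 22), with 8.80, 11.6 and 25.8 CPM as lowest, median and highest in JNK7b. It was 0.26 ± 0.09 higher (adjusted p = 0.0342, edgeR; 6 of 8 hours), and 0.18 without the 2 libraries (adjusted p = 0.141, edgeR). The call of Col4a2 was lost in both sets of hours, with 0.31 over 8, 11, 20 and 23 h (adjusted p = 0.0794, edgeR) and 0.22 over the others (adjusted p = 0.370, edgeR). Leaving out any of 11 of the 69 libraries also ended it.

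Bgn (chromosome X, 73483602 to 73495933, plus strand) had 65.7, 79.4 and 124 CPM in JNK7b livers and 60.6, 71.1 and 97.1 CPM in JNK7a livers, with 58.7, 75.6 and 115 CPM in control livers. Its product binds collagen and transforming growth factor beta, and it was 0.21 ± 0.06 higher in JNK7b than in JNK7a (adjusted p = 0.00852, edgeR), at 7 of 8 hours. Neither group differed from control livers by the test (0.12 ± 0.06, adjusted p = 0.197 for JNK7b and −0.09 ± 0.06, adjusted p = 0.338 for JNK7a, edgeR). Unlike Col3a1, it kept its call without the 2 libraries, at 0.16 (adjusted p = 0.0368, edgeR). Bgn had 0.25 over hours 8, 11, 20 and 23 (adjusted p = 0.0283, edgeR) and 0.18 over the others (adjusted p = 0.248, edgeR). In the first of these sets the call was lost without the 2 libraries, at 0.21 (adjusted p = 0.0564, edgeR). Fn1 had 1172, 1363 and 1597 CPM in JNK7b livers, against 1257, 1534 and 1888 CPM in JNK7a livers, and was lower at 8 of 8 hours, with a log2 fold change of −0.16 ± 0.04 (adjusted p = 0.000619, edgeR) and −0.15 without the 2 libraries (adjusted p = 0.00276, edgeR). Fn1 passed in both sets of hours, with −0.16 over 8, 11, 20 and 23 h (adjusted p = 0.0185, edgeR) and −0.17 over the others (adjusted p = 0.0384, edgeR). It missed the threshold in both sets without the 2 libraries, at −0.14 (adjusted p = 0.0505, edgeR) and −0.15 (adjusted p = 0.0656, edgeR). The call of Fn1 over 8 hours was also lost in both limma fits on the deposited TPM. The hepatocyte markers lay the same way, with 10 of 11 tested lower in JNK7b than in JNK7a and summed medians of 84463 and 94589 TPM, and their part in the Fn1 difference was not tested.

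Ccn2 (chromosome 10, 24595442 to 24598683, plus strand), induced by transforming growth factor beta and by the TEAD co-activators YAP and TAZ, had 2.78, 5.40 and 10.7 CPM in JNK7b livers, 1.59, 3.59 and 7.32 CPM in JNK7a livers and 1.76, 4.44 and 11.9 CPM in control livers. It was 0.45 ± 0.15 higher in JNK7b than in JNK7a (adjusted p = 0.0317, edgeR; 7 of 8 hours), with no call for either group against control. Without the 2 libraries the difference was 0.36 and did not pass (adjusted p = 0.101, edgeR), and 8 of the 69 libraries each ended the call when left out. Ccn2 had 0.75 over hours 8, 11, 20 and 23 (adjusted p = 0.00797, edgeR) and 0.14 over the others (adjusted p = 0.794, edgeR). Just outside the threshold lay Loxl2, a lysyl oxidase that cross-links collagen (0.46 ± 0.17, adjusted p = 0.0509, edgeR), Lamc1 (0.24 ± 0.09, adjusted p = 0.0527, edgeR) and Nid1 (0.33 ± 0.13, adjusted p = 0.0658, edgeR). Stellate cell genes gave 0 calls of 7 by edgeR here too, with none below 0.05 unadjusted: Lrat had 0.14 ± 0.12, Pdgfrb 0.18 ± 0.11 and Acta2 −0.08 ± 0.23 (adjusted p = 0.495, 0.287 and 0.896, edgeR). Timp1 had 0.88 ± 0.51 (adjusted p = 0.259, edgeR) and Tgfb1 0.08 ± 0.09 (adjusted p = 0.649, edgeR). Of the markers of other cells, 1 of 10 for portal fibroblasts (Fbln2), 1 of 8 for smooth muscle (Smtn), 1 of 7 for mesothelium (Wt1) and 1 of 15 for endothelium (Lyve1) were higher in JNK7b than in JNK7a. Of the adipocyte list 3 of 4 tested were higher (Cidea, Car3 and Cfd), with sums, nearly all Car3, of 2619 to 4033 TPM in JNK7b and 1537 to 2654 TPM in JNK7a livers. The defining adipocyte markers were at 0 in most libraries, as given above. The part of all these cells was not tested.

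**Figure D3:**
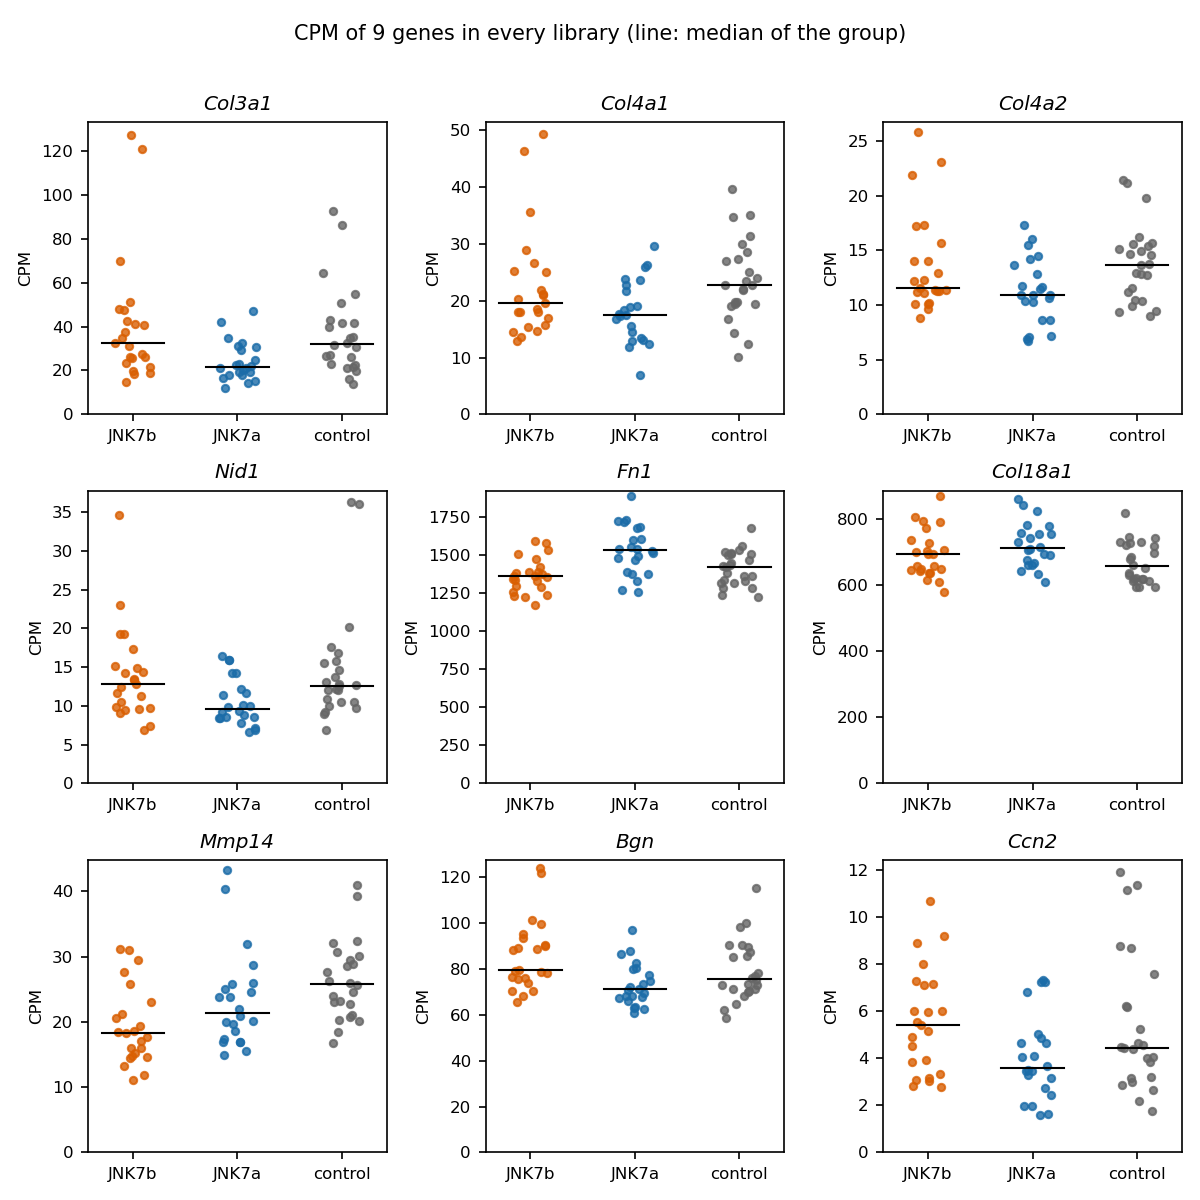
CPM of the 9 genes called in a comparison averaged over the hours, with each point a library, the groups JNK7b, JNK7a and control side by side on the horizontal axis, and a line at each group's median. The groups overlap in every panel; Col3a1 has medians of 32.7, 21.8 and 32.3 CPM, and Mmp14 of 18.3, 21.4 and 25.8 CPM, in JNK7b, JNK7a and control livers.

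Hour by hour, the difference between JNK7a and control livers was widest at 5 h. At that hour 4 of 42 genes were called lower by edgeR, where 3.41% of all genes were called: Col4a1, Col4a2, Nid1 and the beaded filament collagen Col6a1. Without the 2 JNK7b libraries that stand apart, which enter this comparison through the shared filter, scaling and spread, 12 genes were called lower at 5 h and none at the other hours by edgeR, where 4.28% of all genes were called at 5 h. The other 8 of these were Col1a1, Col1a2, Col3a1, Col5a1, Bgn, Sparc, Timp2 and Pdgfrb. Col4a1 had 11.8, 19.1 and 18.5 CPM in the 3 JNK7a libraries against 34.8, 39.7 and 30.0 CPM in the 3 control libraries, a log2 fold change of −1.08 ± 0.32 (adjusted p = 0.0426, edgeR). Nid1 had 7.73, 9.84 and 15.9 CPM against 36.0, 36.3 and 15.8 CPM (−1.40 ± 0.34, adjusted p = 0.0121, edgeR). The type IV collagen groups did not overlap, while 1 control library had as little Nid1 as the highest JNK7a library. Col6a1 had 5.75, 4.72 and 5.32 CPM against 14.3, 14.0 and 9.81 CPM (−1.27 ± 0.31, adjusted p = 0.0109, edgeR), and Col4a2 6.69, 10.3 and 13.6 CPM against 21.4, 21.1 and 16.3 CPM (−0.94 ± 0.24, adjusted p = 0.0187, edgeR). Neither pair of groups overlapped. The 4 genes were picked by their calls at this hour, so a lack of overlap is no further support for them. Over all 42 genes, the median deviations at 5 h were −0.33, −0.22 and 0.13 in the JNK7a libraries and 0.69, 0.50 and 0.18 in the control libraries. JNK7b livers against these same control libraries also had 36 of 42 genes below 0 at 5 h, with a median of −0.40. None of the 42 was called there, where 2 of all genes tested were. Between JNK7b and JNK7a at 5 h 0 of the 42 were called, where 1 of all genes tested was. The 5 h difference is thus not shown to be particular to JNK7a. By summed TPM, which the abundant Fn1 and Col18a1 dominate, the JNK7a libraries had 750, 753 and 1014 TPM and the control libraries 1004, 995 and 758 TPM. The control libraries' summed cholangiocyte markers ranged from 68.1 to 133 TPM, where those of JNK7a livers at 5 h ranged from 38.6 to 50.3 TPM. The part of this in the 5 h difference was not tested.

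The JNK7a calls averaged over hours depend on that hour, and in part on single libraries: without control 14 h replicate 2, 3 of 42 genes were called, where 18.1% of all genes were. Over hours 8, 11, 20 and 23, 1 of the 42 was called, where 7.23% of all genes were, and over 2, 5, 14 and 17 h 2 were, where 12.1% were. With 5 h left out, 0 of 42 genes were called, by edgeR, where 15.9% of all genes were, against 6 with all hours, and Col3a1 had −0.43 (adjusted p = 0.195), Col4a1 −0.27 (adjusted p = 0.167) and Fn1 0.09 (adjusted p = 0.0936). The median of the set at 5 h was −0.52, with 36 of 42 genes below 0, and at 2 h it was 0.32, with 36 above 0. With 2 h left out 14 genes were called, 12 lower and 2 higher, where 16.6% of all genes were. With 14, 17 or 23 h left out 2, 2 and 1 were called, where 15.4%, 15.6% and 15.7% of all genes were. At the other hours no gene of the 42 was called by edgeR between JNK7a and control livers, where 1.91% of all genes were called at 2 h, 0.041% at 8 h, 0.193% at 11 h, 2.49% at 14 h, 0.317% at 17 h, 1.43% at 20 h and 0.809% at 23 h. A joint test that the difference is equal at all hours called 0 of 42 genes in this comparison, with 3 below 0.05 unadjusted and 0.00586% of all genes called, so a dependence on the hour was not shown gene by gene.

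JNK7b livers gave 1 call against control livers at a single hour, Mmp14 at 23 h. It had 16.1, 18.3, 11.0 and 13.3 CPM in the 4 JNK7b libraries against 22.7, 28.9 and 32.1 CPM in the 3 control libraries, and the groups did not overlap. The log2 fold change was −0.93 ± 0.21 (adjusted p = 0.00450, edgeR), where 4.17% of all genes were called at that hour. No gene of the 42 was called at the other hours, where 3.13% of all genes were called at 8 h, 2.63% at 11 h, 3.53% at 20 h, 0.0117% at 5 h, 0.199% at 14 h and 0% at 2 and 17 h. The median of the set varied between hours, with 0.48 at 2 h, −0.40 at 5 h, −0.61 at 14 h and 0.27 at 17 h, hours at which few genes of any kind were called. Without the 2 libraries that stand apart, one at 2 h and one at 8 h, the median was 0.02 at 2 h and −0.12 at 8 h, against 0.19 at 8 h with them, and Mmp14 was also called lower at 8 h. The test of a dependence on the hour called 0 of 42 genes, with 8 below 0.05 unadjusted and 1.32% of all genes called, and Ccn2 had the lowest adjusted p, 0.0728 (edgeR). Between JNK7b and JNK7a, Ccn2 was called at 11 h, where 2.68% of all genes were. It was the only call with all libraries, and without the 2 that stand apart Mmp14 was called lower at 8 h as well. The share of all genes called was 1.55% at 2 h, 0.00586% at 5 h, 3.63% at 8 h, 0.0176% at 14 h, 0.914% at 17 h, 4.36% at 20 h and 3.44% at 23 h. Ccn2 had 5.98 and 9.17 CPM in the JNK7b livers at 11 h against 2.75, 3.48 and 1.59 CPM in the JNK7a livers, without overlap, a log2 fold change of 1.54 ± 0.45 (adjusted p = 0.0474, edgeR). Like Mmp14 at 23 h, Ccn2 was picked by its call, so the lack of overlap is no further support for either. The test of a dependence on the hour called 0 of 42 genes here, with 2 below 0.05 unadjusted and 1.78% of all genes called.

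**Figure D4:**
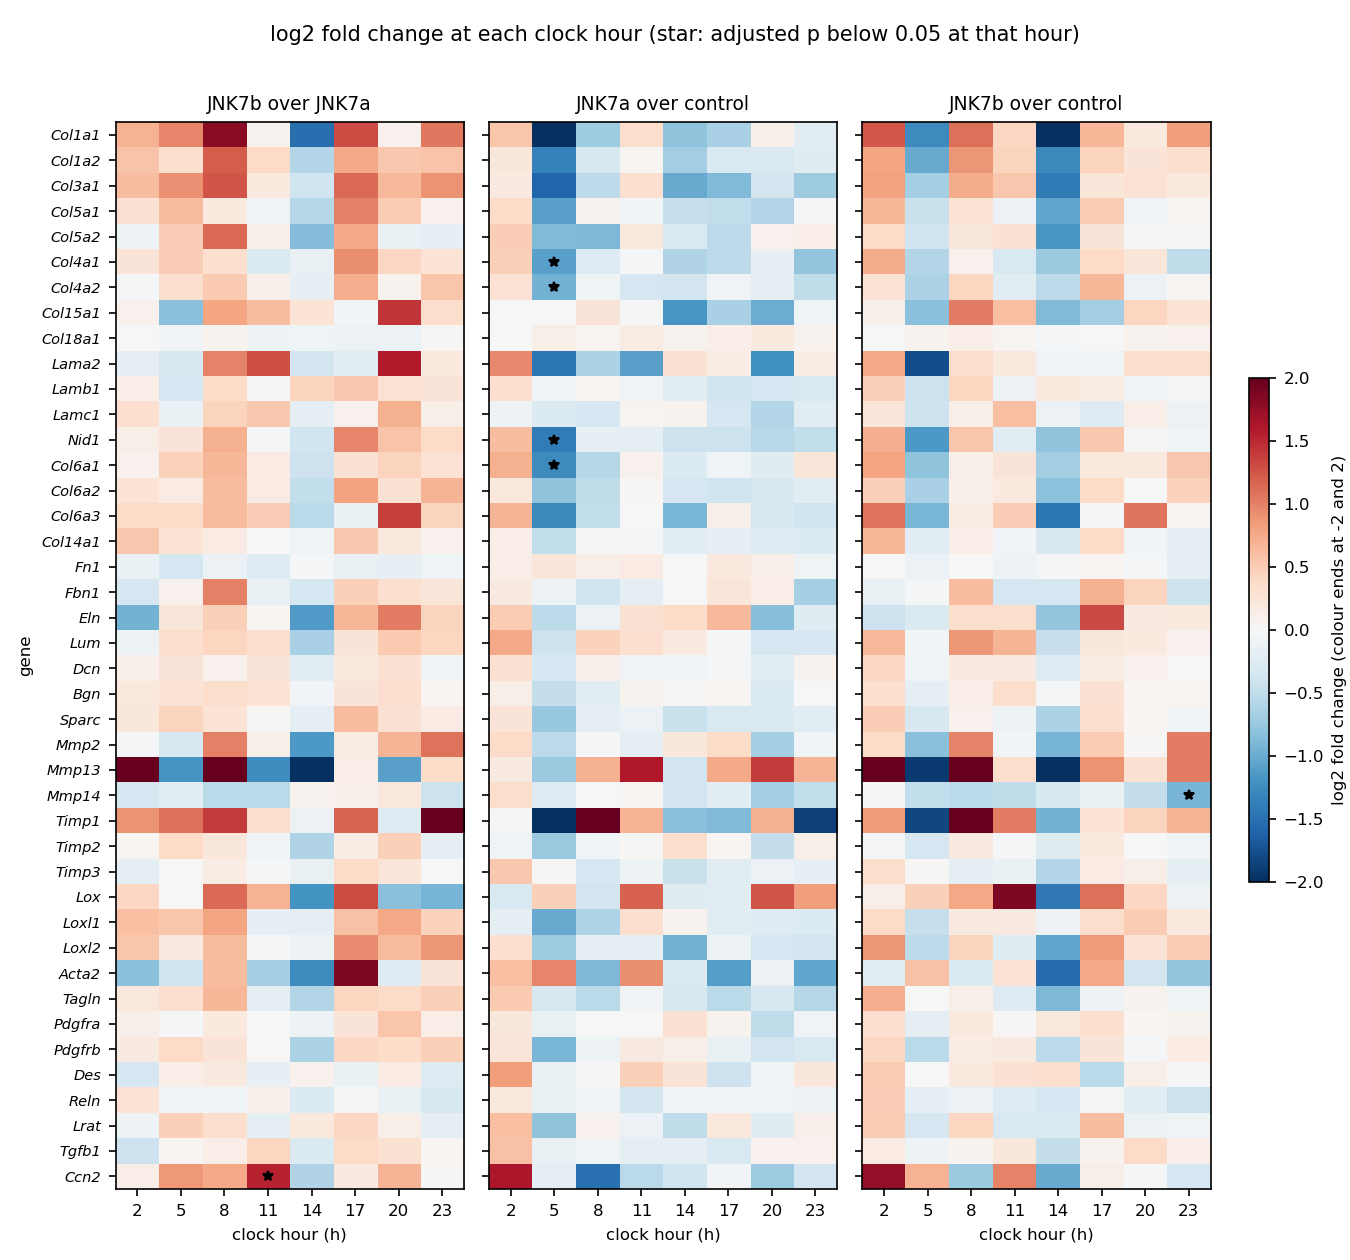
The log2 fold change of each of the 42 genes, by role from top to bottom, at each clock hour from left to right, in 3 comparisons, with red for higher and blue for lower in the group named first and a star where the adjusted p at that hour was below 0.05. The 5 h column of JNK7a over control is mostly blue, with a median of −0.52 and stars at Col4a1, Col4a2, Nid1 and Col6a1, and the 14 h column of JNK7b over control has a median of −0.61 without a star.

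A few matrix genes were called for a 24 h cycle in each group. Their share was smaller than among all genes tested, but whether the set differs from all genes was not tested. A cosine and sine of 24 h period were fitted within each group, and 3 of 42 genes were called in JNK7b livers (Eln, Timp3 and Lox), 6 in JNK7a livers (Lamb1, Eln, Mmp14, Timp3, Loxl1 and Pdgfrb) and 6 in control livers (Col4a2, Eln, Mmp14, Timp3, Loxl1 and Pdgfrb), by edgeR at an adjusted p below 0.05. The share of all genes called as rhythmic was 14.1% in JNK7b, 21.7% in JNK7a and 19.5% in control livers. Timp3, the matrix-bound metalloproteinase inhibitor, and Eln, the elastin gene, were rhythmic in all 3 groups. However, without the 2 libraries that stand apart Eln did not pass in JNK7b livers (adjusted p = 0.207, edgeR).

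Timp3 was highest late in the clock day. Its means at hours 2 to 23 in order were 25.8, 18.5, 19.9, 15.8, 17.4, 29.3, 38.6 and 28.3 CPM in JNK7b livers, 29.2, 18.5, 18.0, 16.2, 19.2, 22.5, 32.8 and 28.5 CPM in JNK7a livers, and 20.2, 18.3, 23.0, 17.3, 26.2, 26.1, 35.5 and 31.9 CPM in control livers. In every group the highest mean was at 20 h and the lowest at 11 h. The fitted peaks were at 20.9, 21.9 and 20.0 h in JNK7b, JNK7a and control, with amplitudes of 0.51, 0.46 and 0.42 on the log2 scale (adjusted p = 3.24e-05, 0.000344 and 0.000471, edgeR), and at 20 h the libraries had 30.2, 48.4, 41.4 and 34.3 CPM in JNK7b, 32.2 and 33.3 CPM in JNK7a, and 38.8, 36.3, 35.6 and 31.4 CPM in control livers. Timp3 shares exon bases with Syn3 on the opposite strand, and no source used here gives the strand setting of the counting, so reads in the shared stretch cannot be assigned to either gene with certainty.

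The other called rhythms peaked between 4.1 and 10.9 h. Eln peaked at 7.6 h in JNK7b, 7.6 h in JNK7a and 5.9 h in control livers, with amplitudes of 0.52, 0.76 and 0.79 (adjusted p = 0.0371, 0.00879 and 0.00158, edgeR), and its highest mean was at 8 h in JNK7b and control livers, at 4.00 and 3.14 CPM, and at 2 h in JNK7a livers, at 3.13 CPM. Without the 2 libraries that stand apart the JNK7b rhythm of Lox did not pass either (adjusted p = 0.114, edgeR). Loxl1, which cross-links elastin, peaked at 9.9, 10.9 and 8.5 h in JNK7b, JNK7a and control with amplitudes of 0.39, 0.59 and 0.63 (adjusted p = 0.221, 0.0248 and 0.0256, edgeR), and Pdgfrb at 5.7, 9.4 and 6.5 h with amplitudes of 0.30, 0.34 and 0.37 (adjusted p = 0.110, 0.0478 and 0.0194, edgeR). Lamb1, a laminin chain, had its call in JNK7a livers, with an amplitude of 0.42 and a peak at 6.2 h (adjusted p = 0.000437, edgeR), and amplitudes of 0.22 in JNK7b and 0.18 in control livers. Lox, the founding lysyl oxidase, had amplitudes of 0.72, 0.48 and 0.59 in JNK7b, JNK7a and control (adjusted p = 0.00862, 0.322 and 0.0973, edgeR), and Col4a2 of 0.23, 0.25 and 0.33 (adjusted p = 0.175, 0.169 and 0.0289, edgeR).

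Mmp14 peaked at 5.1 h in JNK7b, 5.6 h in JNK7a and 4.1 h in control livers, with amplitudes of 0.20, 0.48 and 0.30 (adjusted p = 0.164, 0.000165 and 0.0323, edgeR). The JNK7b course was the flattest of the 3 by amplitude. That difference did not pass its own test: the joint test of a difference of rhythm called 0 of 42 genes in every comparison by edgeR, with 0 below 0.05 unadjusted, while 0.0117% of all genes were called for JNK7a against control, 0% for JNK7b against control and 0.0469% for JNK7b against JNK7a. A rhythm called in 1 group and not in another is therefore not shown to differ between them. Without the 5 h libraries 2 genes, Eln and Timp3, were called as rhythmic in control livers. The share of all genes called without 5 h is not given, so the lower count is not a result about the matrix genes.

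**Figure D5:**
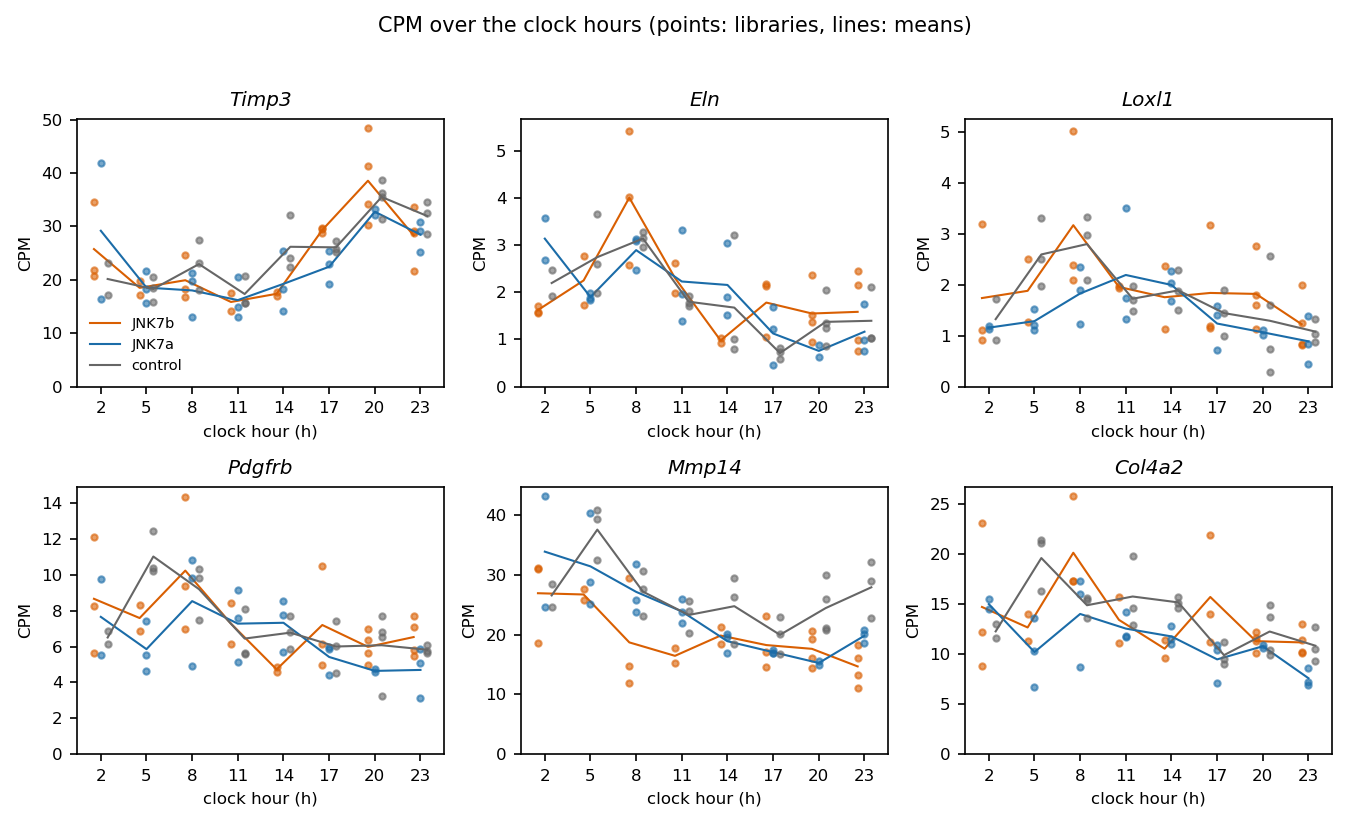
CPM of 6 genes over the clock hours (points are libraries, lines join the means of each group and hour; JNK7b, JNK7a and control are drawn slightly apart along the axis). Timp3 reaches its highest mean at 20 h in each group, 38.6, 32.8 and 35.5 CPM, while Eln, Loxl1 and Pdgfrb are higher in the earlier hours.

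Lists of 179 other matrix, signalling and stellate cell genes, of which those expressed well enough were tested, were set beside the 42. In JNK7a against control livers, 6 of 54 other structural matrix genes fell and 2 rose. Of 39 enzymes of matrix synthesis and turnover 7 fell and 0 rose, of 47 genes of transforming growth factor beta, platelet-derived growth factor and CCN signalling 5 fell and 1 rose, and of 33 other stellate cell markers 1 fell and 1 rose, where 8.31% of all genes were higher and 9.56% lower. The 2 chains of laminin-332 with the smallest p moved in opposite directions: Lamb3 averaged 6.80 ± 3.77 CPM in JNK7a and 16.7 ± 7.13 CPM in control livers (−1.30 ± 0.18, adjusted p = 3.32e-07, edgeR), and Lama3 9.27 ± 5.04 and 4.06 ± 2.29 CPM (1.20 ± 0.18, adjusted p = 1.61e-06, edgeR). Wwtr1, which encodes the TEAD co-activator TAZ, averaged 15.7 ± 2.59 CPM in JNK7a and 25.5 ± 5.78 CPM in control livers and fell, with a log2 fold change of −0.68 ± 0.07 (adjusted p = 2.69e-10, edgeR). Spon2, a secreted matrix protein, had a log2 fold change of −0.98 ± 0.15 and Tgm2, the cross-linking transglutaminase, −0.37 ± 0.07 (adjusted p = 2.21e-06 and 7.71e-05, edgeR).

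In JNK7b against control livers, 3 of the 54 structural genes rose and 2 fell, 3 of the 39 enzymes rose and 3 fell, 3 of the 47 signalling genes rose and 0 fell, and no stellate cell marker of 33 was called by edgeR, where 11.3% of all genes were. The signalling genes called higher were Smad7 (0.39 ± 0.09, adjusted p = 0.000985, edgeR), the inhibitory Smad, Tgfbr2 (0.26 ± 0.08, adjusted p = 0.0197, edgeR), the type II receptor, and Skil (0.29 ± 0.09, adjusted p = 0.0330, edgeR), a repressor of Smad transcription. Col27a1, a fibrillar collagen of cartilage, averaged 23.1 ± 11.4 CPM in JNK7b and 34.0 ± 13.8 CPM in control livers and was lower (−0.71 ± 0.11, adjusted p = 7.77e-06, edgeR). In JNK7b against JNK7a livers, 8 structural genes were higher against 4 lower, 8 enzymes against 2, 8 signalling genes against 3, and no stellate cell marker was called in either direction by edgeR, where 9.29% of all genes were higher and 9.35% lower. Wwtr1 averaged 27.4 ± 4.74 CPM in JNK7b and 15.7 ± 2.59 CPM in JNK7a livers (0.78 ± 0.07, adjusted p = 6.37e-12, edgeR) and Spon2 19.5 ± 16.7 and 6.94 ± 4.77 CPM (1.62 ± 0.15, adjusted p = 2.15e-11, edgeR). Lamb3 was higher (0.93 ± 0.18, adjusted p = 0.000144, edgeR) and Lama3 lower (−1.05 ± 0.19, adjusted p = 2.43e-05, edgeR) in JNK7b than in JNK7a livers. These comparisons share the JNK7a libraries. The JNK7b values of these other genes are over all 8 hours and all libraries. They are not given over each set of 4 hours or without the 2 libraries that stand apart.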

How the data were processed

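Polyadenylated RNA was sequenced in 69 libraries of liver as paired reads of 150 bases, per the labels' protocols. The authors deposited 2 tables per gene with a column for each library, one of expected counts and one of TPM (a level per length). By its name the count table holds counts scaled from TPM by length, which takes up differences in transcript length between libraries, and the submitters' processing notes name cutadapt, Salmon and mm10 without versions. Expected counts were rounded and summed by symbol. The deposited TPM were used for levels and, as alternatives, in the limma fits on TPM. Genes were kept by filterByExpr over the 24 combinations of group and hour, which left 17059, and libraries were scaled by TMM. CPM are counts relative to the library size after that scaling. edgeR 4.0.16 (R 4.3.3) was fitted with a robust quasi-likelihood over 24 group means (45 residual degrees of freedom). Group differences are the mean over 8 hours with equal weight, rhythms a 24 h cosine and sine (60 degrees of freedom), and p-values were adjusted by Benjamini-Hochberg over all 17059 genes. SE are the log2 fold change over the root of F. For each gene, all libraries share 1 estimate of the spread. The common biological coefficient of variation over all genes was 0.275, and the tests used the estimate of each gene. The number of counts, 26.8 M to 48.6 M a library, sets the counting error, which is small beside the spread except for genes near 0. DESeq2 1.42.0 and limma 3.58.1 served as alternatives, with each library, each hour and 2 libraries that stand apart left out. Full values are given for genes called in any comparison averaged over hours or any rhythm and for 9 named collagen and stellate cell genes, and for other pathway genes those with the smallest p. The 42 genes and all lists were chosen with earlier results of these data known. Libraries with the same replicate number were not seen to deviate together (62 pairs, correlations of −0.17 to 0.11), and the main fit does not pair them. With 2 to 4 libraries for each group and hour, these correlations cannot exclude a pairing.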

Additional observations from a re-analysis of the deposited data

Results flagged for a closer look

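In groups of 4 libraries, 9 of 126 sets of values of a gene (7.14%) had a library far from the other 3 by Dixon's criterion, where chance alone gives about 1 in 20. At 23 h in JNK7b livers, replicate 4 had 4.74 CPM of Acta2 and 3.41 CPM of Mmp2, above the other 3, replicate 1 had 7.04 CPM of Tgfb1, replicate 3 had 793 CPM of Col18a1, and replicate 2 had the low value, 70.2 CPM, of Bgn. At 20 h, JNK7b replicate 3 had 8.50 CPM of Tagln. At 20 h in control livers, replicate 2 had 2.74 CPM of Lama2, replicate 1 had 0.468 CPM of Mmp13 and replicate 4 had 68.6 CPM of Reln.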

How the results depend on the processing

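The 12 differences called per gene and comparison kept their sign under every alternative run. The set's median in JNK7b against control did not, at −0.07 without the 2 libraries that stand apart and 0.05 with them. Leaving out these libraries, picked as high in these genes, lowers JNK7b values by construction. Of 42 genes, JNK7a against control called 6, JNK7b against control 1 and JNK7b against JNK7a 5. The counts that follow stand without the share of all genes called under the same setting, except where it is given above. A change in them may follow the number of genes called in all, so it is not a result about the matrix genes. JNK7a against control called 1 gene with no filter on low counts, 3 with limma on log2(TPM + 1), 1 over hours 8, 11, 20 and 23 and 2 over hours 2, 5, 14 and 17 (1 and 3 without the 2 libraries); with 1 hour left out it called 14 (without 2 h), 0 (5 h), 2 (14 h), 2 (17 h) and 1 (23 h). JNK7b against control called 3 over hours 8, 11, 20 and 23, 0 over the other 4 hours (2 and 0 without the 2 libraries), 2 without 2 h and 2 without 14 h. JNK7b against JNK7a called 3 with no filter, 8 with a filter at 1 CPM, 3 without the 2 libraries that stand apart, 9 with DESeq2, 3 with limma on log2(TPM + 1), 10 over hours 8, 11, 20 and 23 and 1 over the other 4 hours (4 and 0 without the 2 libraries), and 9, 9, 2, 13 and 3 without 2, 5, 8, 14 and 23 h. With a replicate block, 2 genes were called in JNK7b against JNK7a, 5 in JNK7a against control and 1 in JNK7b against control. The calls of Col3a1, Col4a2 and Ccn2 were lost in the first of these, and that of Nid1 in the second. Whether replicate numbers pair the libraries is not known. With each library left out in turn, JNK7a against control called 3 to 8, JNK7b against control 1 to 2 and JNK7b against JNK7a 3 to 14. The first was 3 and the second 2 without control 14 h replicate 2. The last was 3 without JNK7b 2 h replicate 3, JNK7a 8 h replicate 2 or JNK7a 20 h replicate 1, 8 without JNK7b 17 h or 23 h replicate 3, JNK7a 2 h or 17 h replicate 2, JNK7a 8 h replicate 1 or JNK7a 14 h replicate 3, 9 without JNK7b 8 h replicate 2, 10 without JNK7b 8 h replicate 1 and 14 without JNK7b 2 h replicate 2.

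At single hours, leaving out the 2 libraries that stand apart gave 12, 2 and 2 calls in JNK7a against control, JNK7b against control and JNK7b against JNK7a, where all libraries gave 4, 1 and 1, and the last gave 0 with no filter. It also gave 0 when JNK7b 5 h replicate 2 was left out together with control 8 h replicate 3. Rhythms called in control livers numbered 2 without 5 h, and those in JNK7b livers 1 without 8 h, 6 without 17 h and 1 without 23 h. These counts too stand without the share of all genes called, except where it is given above. The causes of these changes were not tested. The call of Mmp14 in JNK7b against control held under 22 of 24 settings, lost over hours 2, 5, 14 and 17 with and without the 2 libraries, and with each of 69 libraries left out. Calls near the threshold, such as Col18a1 in JNK7a, which held under 45 of 69 libraries left out, are the least certain, and low counts limit Timp1 and Mmp13, whose differences had SEs of 0.49 to 0.56 on the log2 scale.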
